A study of Mus musculus with 2 samples.

Results

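Immature dentate granule neurons were picked out of single-nucleus RNA profiles of the mouse hippocampus by their own transcripts. A nucleus counted as a member when Prox1 and at least 3 of 6 genes of young granule neurons (Dcx, Igfbpl1, Sox11, Draxin, Sema3c and Neurod1) were detected. The unique molecular identifiers (UMIs, each standing for 1 captured transcript) of the first 5 of these genes also had to reach at least 0.5 times those of Prox1, Dsp, C1ql2, Rfx3 and Stxbp6, genes of mature granule neurons. No Gad1, Gad2 or Trp73 UMI, at most 1 Eomes UMI and at most 1 of 5 genes of dividing cells (Mki67, Top2a, Cenpf, Kif11 and Cenpe) were allowed. The rule took 2911 of 48103 nuclei that passed the quality filter, 1404 of 25060 in the control library and 1507 of 23043 in the library labelled knockout. Since these genes chose the members, their levels are given only as a description.

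Granule neurons of the dentate gyrus are made in large numbers after birth, from progenitors at the inner edge of the granule cell layer. A young granule neuron leaves the cell cycle, carries the microtubule-binding protein doublecortin (Dcx) and the calcium-binding protein calretinin (Calb2), grows its axon, the mossy fiber, towards CA3, and later exchanges calretinin for calbindin (Calb1). Capicua, the product of Cic, is a DNA-binding repressor that holds down genes of growth factor signalling, among them the ETS transcription factors Etv1, Etv4 and Etv5, until signalling through ERK relieves the repression.

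The control library came from Cicflox/flox mice and the other from littermates of the genotype Emx1-Cre; Cicflox/flox, so that both groups carry the floxed allele and differ by the Cre driver. Emx1-Cre recombines in the dorsal telencephalic lineage, which includes the pyramidal and granule neurons and astrocytes of the hippocampus and leaves out its interneurons and microglia. Mice were at postnatal day 19, and each library pooled 1 hippocampus from each of 3 animals, 2 males and 1 female. Each group is thus 1 library with no replicate, no difference between the libraries could be tested, and every interval below is a 95% interval for counting error only.

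The control library held 25907 barcodes and the library labelled knockout 23207. Of the barcode sequences 175 occurred in both libraries, and 0 of these were members in both. Members of the control had a median of 4760 UMIs and 2281.5 detected genes, and those of the library labelled knockout 4056 UMIs and 2075 genes. The median mitochondrial share of their UMIs was 0.0407% and 0.0722%, and the part of these gaps in the differences below was not tested. In all, members gave 8861498 and 8722489 UMIs.

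Cic itself (ENSMUSG00000005442), the targeted gene, was not lower. Control members held 118 Cic UMIs and members of the library labelled knockout 141. Ratios are taken in CPM, the sum of UMIs scaled to an equal total in both libraries, and the log2 ratio of Cic was 0.28 (-0.08 to 0.64). The counts are not resolved by exon, and 3′ reads outside the floxed exons check nothing about the deletion. The second library is therefore called by its label throughout.

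The most selective steps of the rule were Prox1, detected in 11272 nuclei of the control and 9426 of the library labelled knockout, and the 3 immature genes, which left 3218 and 3167. The ratio of immature to mature UMIs left 2208 and 2184, and the absence of Gad1 and Gad2 left 1450 and 1552. Just inside the ratio, at 0.5 to under 0.6, were 86 and 91 members, with a Calb2 level of 22.9 and 17.7 CPM. Just outside it, at 0.4 to under 0.5, were 70 and 74 nuclei, with 31.7 and 16.2 CPM. Members with exactly 3 of the 6 immature genes numbered 556 and 661, and another 283 and 386 nuclei missed membership with only 2 of them.

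Some members also carried RNA of another cell type. Doublets called by Scrublet were not removed by the rule, and they made up 209 of the control members and 211 of those in the library labelled knockout. At least 5 UMIs from at least 3 marker genes of another cell type were present in 211 and 226. The types screened were pyramidal neurons, inhibitory neurons, astrocytes, oligodendrocyte precursors, oligodendrocytes, microglia and vascular cells. Markers of Cajal-Retzius cells, mossy cells, progenitors and neuroblasts were not part of this screen. Together, 279 control members (19.9%) and 288 members of the library labelled knockout (19.1%) were marked by either sign. They are called mixed nuclei here. Their median depth was 9850 and 9132.5 UMIs against 4325 and 3670 in the others. Pyramidal neuron markers marked 64 control members and 88 of the library labelled knockout, microglial markers 49 and 50, and astrocyte markers 41 and 60. For oligodendrocytes, counts are given over 5 markers (Mbp, Mog, Mag, Mobp and Enpp6), a shorter list than the one that marked mixed nuclei. Over these 5, 40 control members and 20 of the library labelled knockout met the same minimum, so that here the control had more. Without mixed nuclei, 1125 and 1219 members remained. Shares of nuclei and counts over all genes are given with and without them, and many single genes only without them.

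**Figure D1:**
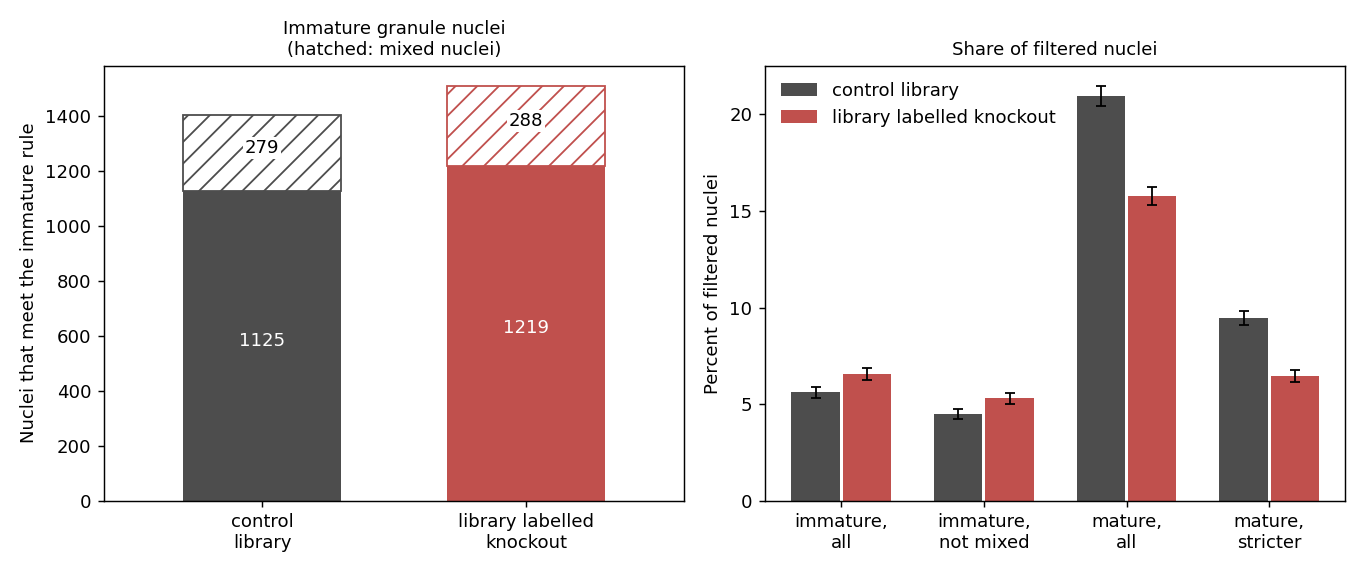
Left, number of nuclei that met the immature rule in each library, with mixed nuclei hatched. Right, share of all filtered nuclei in percent, with exact binomial 95% intervals, for immature and mature granule nuclei. The immature shares were 5.60% and 6.54%, and those of the stricter mature class 9.47% and 6.44%.

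The label was checked with genes that the rule did not use. For this, mature granule nuclei were those with an immature UMI sum under 0.5 times the mature sum, without mixed nuclei and with at least 5 UMIs from at least 3 of the mature genes, 2373 of them control nuclei and 1485 from the library labelled knockout. Calb2 (ENSMUSG00000003657) had 437 UMIs in the immature nuclei of each library, or 80.6 and 86.3 CPM, against 0.997 and 1.52 CPM in mature nuclei. Calb1 (ENSMUSG00000028222) ran the other way, with 60 and 32 UMIs (11.1 and 6.32 CPM) against 155.1 and 127.1 CPM in mature nuclei. The pair of calcium-binding proteins thus stood in opposite order in the stages of both libraries, as the label asks.

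Over all genes tested, 1447 of 9430 (15.3%) were at least 2-fold higher in immature than in mature nuclei of both libraries and 652 (6.91%) were at least 2-fold lower. With mixed nuclei and all mature nuclei kept, the numbers were 589 of 9494 (6.2%) and 412 (4.34%). Without mixed nuclei the median depth was 4325 and 3670 UMIs in immature and 11108 and 9950 in mature nuclei. Astrocyte markers summed to 381.0 and 384.6 CPM in immature against 217.9 and 282.8 CPM in mature nuclei. Pyramidal neuron markers went the other way, at 112.2 and 109.4 against 275.7 and 191.7 CPM. The part of depth and of RNA from other cell types in these counts was not tested. Of 23 other genes of young neurons with at least 20 UMIs, 19 were at least 2-fold higher in immature nuclei in each library, with median log2 ratios of 2.42 (control) and 2.08 (labelled knockout). With all nuclei kept 19 and 16 were, at medians of 1.84 and 1.38. Over all genes counted the medians were 0.42 and 0.45. Stmn1, a microtubule-destabilising protein of growing neurites, stood at 159.8 and 175.5 CPM in immature nuclei and at 15.9 and 18.4 CPM in mature nuclei. Sox4, a partner of Sox11 in neuronal differentiation, stood at 58.6 and 55.5 CPM against 4.39 and 5.90 CPM. Epha7, an ephrin receptor in the same list, was lower in immature nuclei, at 714.8 and 530.8 CPM against 1275 and 1064 CPM. Of 23 genes of mature granule neurons, 18 were at least 2-fold lower in the immature nuclei of the control and 16 in those of the library labelled knockout. Their median log2 ratios were -1.84 and -1.93, and with all nuclei kept 13 and 10 were 2-fold lower, at medians of -1.24 and -0.86.

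By the smaller of the ratios in the 2 libraries, the leading gene was A730004F24Rik, at 26.9 and 32.8 CPM in immature and 0.221 and 0.464 CPM in mature nuclei. Syt9, a synaptotagmin of secretory vesicles, stood at 130.5 and 121.2 CPM against 1.96 and 1.92 CPM. Bmper, a secreted modulator of BMP signalling, stood at 118.0 and 111.1 CPM against 2.58 and 2.65 CPM. The matrix protein gene Ltbp2, the spindle orientation gene Insc and the receptor gene Eda2r were also among the leading 10. On the other side, Adarb2 had 37.4 and 55.5 CPM in immature nuclei against 1490 and 1879 CPM in mature nuclei. Trpc6, a calcium-permeable channel, had 8.85 and 4.93 CPM against 336.1 and 101.2 CPM, and Trpm3, another channel of the wider family, had 103.8 and 168.4 CPM against 2445 and 3243 CPM. Il1r1, the interleukin-1 receptor, had 1.84 and 1.97 CPM against 44.8 and 41.4 CPM.

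**Figure D2:**
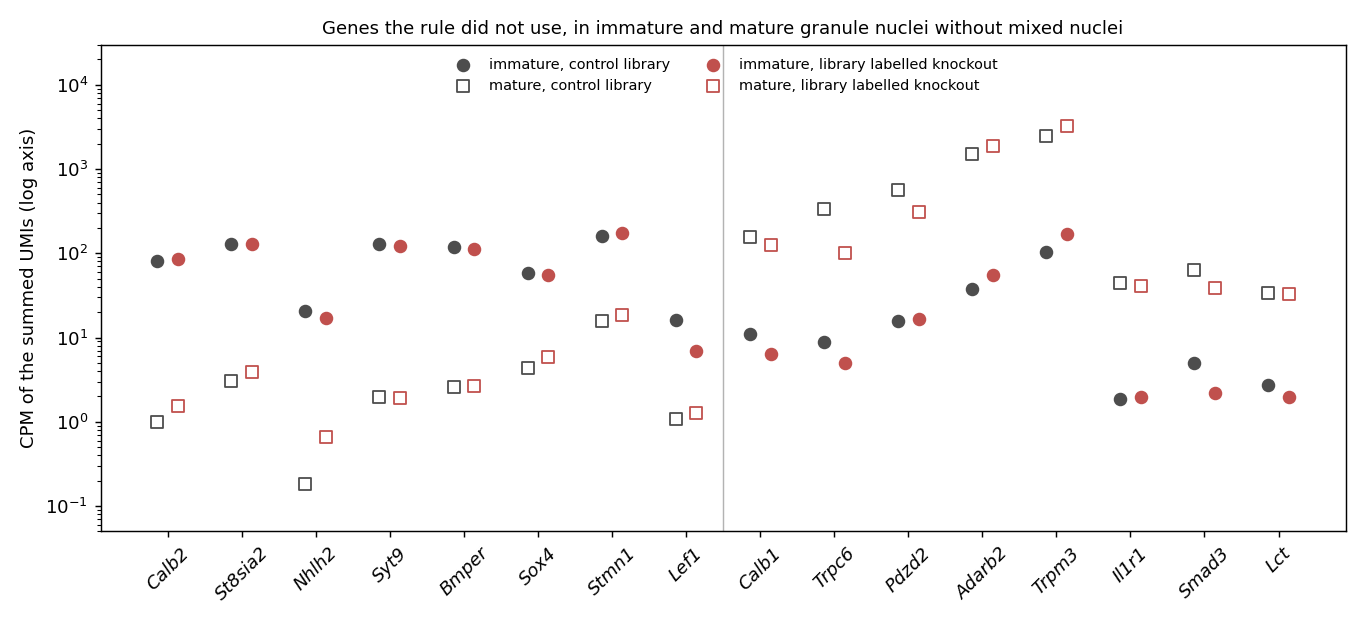
Level in CPM (log axis) of 16 genes that the rule did not use, in immature (filled circles) and mature (open squares) granule nuclei of each library, mixed nuclei left out. Genes left of the line were higher in immature nuclei of both libraries and genes right of it lower, as for Calb2 (80.6 and 86.3 CPM against 0.997 and 1.52) and Calb1 (11.1 and 6.32 against 155.1 and 127.1).

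The immature share of filtered nuclei was 5.60% in the control (5.32% to 5.89%) and 6.54% in the library labelled knockout (6.22% to 6.87%), a ratio of 1.17 (1.08 to 1.26). Without mixed nuclei the ratio was 1.18 (1.09 to 1.28). Within the rule, the absence of Gad1 and Gad2 removed 758 of 2208 control nuclei and 632 of 2184 in the library labelled knockout. Control members were the deeper ones, and the part of this step and of depth in the ratio was not tested. Classes outside the Emx1 lineage also had higher shares in the library labelled knockout, with microglia at 4.99% and 5.72%, a ratio of 1.15 (1.06 to 1.24), and interneurons at 2.72% and 3.25%, a ratio of 1.19 (1.07 to 1.33). In nuclei called female by Xist and Y-linked transcripts, with 1 female per library, the immature ratio was 1.09 (0.96 to 1.24). In nuclei called male, with 2 males per library, it was 1.16 (1.02 to 1.31). The female ratio could not be separated from 1 by counting error. Mature granule nuclei made up 20.9% and 15.8%, a ratio of 0.75 (0.72 to 0.79). In the stricter class the shares were 9.47% and 6.44%, a ratio of 0.68 (0.64 to 0.73). Over all members and mature nuclei, the immature ones made up 21.1% (20.1% to 22.1%) in the control and 29.3% (28.1% to 30.6%) in the library labelled knockout. Without mixed nuclei and with the stricter mature class they made up 32.2% (30.6% to 33.7%) in the control and 45.1% (43.2% to 47.0%) in the library labelled knockout. The variation between mice and between preparations is not in these intervals, and a lower number of mature nuclei and a higher number of immature nuclei both move this share.

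The genes of the rule were close between the libraries in the members without mixed nuclei. Dcx had 1735 and 1792 UMIs, Igfbpl1 2166 and 2157, Sox11 2113 and 2117, and Neurod1 363 and 360. Sema3c, a secreted guidance cue, was the most abundant of them with 7488 and 6509 UMIs, a log2 ratio of -0.10. On the mature side Prox1, the factor that fixes granule cell identity, had 3850 and 3674 UMIs. Stxbp6, a syntaxin-binding protein, had 608 and 398, a log2 ratio of -0.51. All of these numbers follow in part from the rule.

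Between the libraries, 54 of 9628 genes tested (0.561%) were higher and 19 (0.197%) lower in members of the library labelled knockout. To be counted, a gene needed a difference of 2-fold or more in CPM, with 0.5 UMI added to each sum. Its larger sum had to hold 50 UMIs or more, at 10 CPM or above. This is a rule of size, not a test. Without mixed nuclei, 37 of 9684 genes (0.382%) were higher and 10 (0.103%) lower. The genes past the rule in both sets were 20 of the 54 and of the 37 higher ones, and 3 of the 19 and of the 10 lower ones. The median log2 ratio of all genes was 0.03 with and 0.05 without mixed nuclei. A count in a nucleus can come from its own RNA or from free RNA in the droplet, which is taken up below.

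The known Capicua targets Etv4 and Etv5 led the higher genes by log2 ratio without mixed nuclei. In all members Etv4 also led, but Gm5820, 9630014M24Rik and Abca8a came before Etv5. Etv4 (ENSMUSG00000017724), an ETS activator induced by growth factor signalling, had 12 UMIs in 12 of the 1125 control members without mixed nuclei. In the library labelled knockout it had 634 UMIs in 472 of 1219 members, a log2 ratio of 5.76 (5.01 to 6.78). With mixed nuclei kept the sums were 47 and 1045 and the ratio 4.48. Female nuclei went from 3 to 221 UMIs and male nuclei from 4 to 234, ratios of 5.98 and 5.90. The difference was thus present in nuclei called female and in nuclei called male.

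Etv5 (ENSMUSG00000013089), the closest relative of Etv4, had 22 UMIs in 20 control members and 380 in 281 members of the library labelled knockout. Its log2 ratio was 4.18 (3.59 to 4.90), and 4.00 in female and 4.22 in male nuclei. With mixed nuclei kept the ratio was smaller, with 0.0812 and 0.522 Etv5 UMIs per nucleus against 0.0196 and 0.312 without them. Etv1, the remaining member of this ETS subfamily, had 72 UMIs in control members and 244 in the others, and its log2 ratio was 1.85 (1.48 to 2.26). This ratio, too, was smaller with mixed nuclei kept, at 0.230 and 0.504 Etv1 UMIs per nucleus against 0.064 and 0.200 without them. The 3 related factors thus stood in the order Etv4, Etv5, Etv1 by ratio, although Etv1 was the most abundant of them in the control, at 13.3 CPM against 2.21 for Etv4 and 4.05 for Etv5.

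Feedback inhibitors and adaptors of the same pathway gave an uneven picture. Spred3, an inhibitor of the Ras to ERK cascade, had 69 and 302 UMIs, and the log2 ratio was 2.22 (1.85 to 2.63). It overlaps Ggn on the opposite strand. Its relative Spred1 had 569 and 917 UMIs, a ratio of 0.79 (0.64 to 0.94) that stayed under 2-fold, and Spred2 had 700 and 806 UMIs, a ratio of 0.30. Shc3, an adaptor of receptor tyrosine kinases in neurons, had 401 and 1306 UMIs, a ratio of 1.80 (1.64 to 1.97), and was detected in 264 and 717 nuclei. The Sprouty inhibitors did not follow 1 direction. Spry4 had 2 and 39 UMIs, a log2 ratio of 4.08 with an interval of 2.43 to 7.48, below the minimum of 50 UMIs, whereas Spry2 had 69 and 51 (-0.33) and Spry1 25 and 25.

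The ERK phosphatases were sparse in these nuclei. Dusp6 had 4 and 18 UMIs, Dusp4 29 and 41, and Dusp5 10 and 6, all under the minimum. Ccnd1, a G1 cyclin, had 33 and 32 UMIs and Phlda1 12 and 11. Of the 15 listed targets, 5 were past the rule of size with and without mixed nuclei (Etv1, Etv4, Etv5, Spred3 and Shc3), none was lower, and 8 reached the minimum of UMIs and CPM. Of all genes tested, 0.561% were higher and 0.197% lower with mixed nuclei, and 0.382% and 0.103% without them. The median log2 ratio over the list was 0.86 in all members, and 1.29 over the 14 members of the list with at least 20 UMIs in the set without mixed nuclei, against 0.03 and 0.05 over all genes. The list was chosen with earlier results of these data known, so its counts and medians are a description only.

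Upstream sequence of these genes was searched for the Capicua octamer, because several of them were higher together. The letters searched were TGAATGAA, TGAATGGA, TCAATGAA and TCAATGGA, on both strands, within the 250 bases before the annotated start sites in the RefSeq table for GRCm38.p6, a build older than the one named for the counts. Of 27025 genes with such a sequence, 1003 (3.71%) held a match. Of the 15 listed targets 9 had a sequence and 3 held a match, and of the 37 genes that were higher without mixed nuclei 22 had a sequence and 5 held a match. Among the 5 targets past the rule, the sequences of Etv1 and Etv5, each with 2 start sites, held none, and Spred3 held 1, while Etv4 and Shc3 were not searched. The 4 sequences printed are those of Spred3 (chr7:29168648-29168897, minus strand) and of the adaptor gene Shc4 (chr2:125724149-125724398, minus strand), both higher, and of Dusp6 (chr10:99262981-99263230, plus strand) and Spry2 (chr14:105896820-105897069, minus strand), which were not past the rule. They read 5′ to 3′ towards the start site, with the match in capitals.
Spred3: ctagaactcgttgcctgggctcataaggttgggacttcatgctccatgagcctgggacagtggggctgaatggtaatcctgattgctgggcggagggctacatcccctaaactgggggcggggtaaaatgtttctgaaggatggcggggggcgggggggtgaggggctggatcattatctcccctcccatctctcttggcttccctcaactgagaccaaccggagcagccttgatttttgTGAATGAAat
Shc4: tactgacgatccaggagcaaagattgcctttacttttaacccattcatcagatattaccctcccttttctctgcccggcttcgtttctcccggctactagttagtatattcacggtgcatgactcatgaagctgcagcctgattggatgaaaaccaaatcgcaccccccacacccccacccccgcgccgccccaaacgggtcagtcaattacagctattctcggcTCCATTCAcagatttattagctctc
Dusp6: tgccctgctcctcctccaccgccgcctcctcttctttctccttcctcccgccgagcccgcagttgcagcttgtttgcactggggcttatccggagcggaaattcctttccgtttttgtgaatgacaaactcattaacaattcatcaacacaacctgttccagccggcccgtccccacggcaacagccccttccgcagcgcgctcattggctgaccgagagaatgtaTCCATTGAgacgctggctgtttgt
Spry2: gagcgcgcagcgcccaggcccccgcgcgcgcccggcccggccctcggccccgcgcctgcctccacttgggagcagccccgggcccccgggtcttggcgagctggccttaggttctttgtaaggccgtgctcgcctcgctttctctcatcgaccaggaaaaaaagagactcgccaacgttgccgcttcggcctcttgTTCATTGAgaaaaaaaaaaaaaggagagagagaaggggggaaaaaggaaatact
The matches begin 10, 25, 24 and 54 bases before the start site, in that order. A match is a match of letters, not a measured binding site, and both genes past the rule and genes not past it held one. Of the latter, Dusp6 was under the minimum of UMIs, with a UMI in 4 control nuclei and in 18 of the library labelled knockout.

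Outside the list, the higher genes included growth factor and receptor genes. Fgf1 (ENSMUSG00000036585), the acidic fibroblast growth factor, had 64 UMIs in 56 nuclei and 540 in 406 nuclei, a log2 ratio of 3.17 (2.80 to 3.57). Gm5820, a predicted transcript that overlaps Fgf1 on the opposite strand in GENCODE for GRCm38, had 121 and 1013 UMIs, a ratio of 3.16, and reads of the 2 genes may not be told apart where they overlap. Alk, a receptor tyrosine kinase of developing neurons, had 117 and 428 UMIs, a ratio of 1.97 (1.67 to 2.28). Shc4, an adaptor related to Shc3, had 16 and 63 UMIs, and its ratio of 2.04 was 0.61 in female and 4.02 in male nuclei.

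The noncoding transcript 9630014M24Rik had 260 UMIs in 176 control nuclei and 2187 in 893 nuclei of the library labelled knockout, and its log2 ratio was 3.17 (2.99 to 3.36). Thrb, the thyroid hormone receptor beta, had 876 and 2675 UMIs, a ratio of 1.71 (1.60 to 1.82), and Gm48321, which lies opposite to it, had 39 and 127. Arhgap26, a GTPase-activating protein, had 483 and 1497 UMIs, a ratio of 1.73, with 26 and 69 for the opposite-strand Gm15336.

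Several enzymes and secreted products were also higher. Hsd11b1, which regenerates active glucocorticoid, had 36 and 110 UMIs, a ratio of 1.70, and it overlaps Lamb3 and 4930570N18Rik on the other strand. Vgf, a neuropeptide precursor, had 45 and 133 UMIs, a ratio of 1.65. Ptpn5, the striatal-enriched tyrosine phosphatase that dephosphorylates ERK, had 301 and 645 UMIs, a ratio of 1.20 (1.00 to 1.40), and overlaps Gm14377 on the opposite strand. L3mbtl4, a chromatin protein gene that was also among the most immature-enriched genes, had 263 and 682 UMIs, a ratio of 1.47 (1.27 to 1.68). These genes were named after the values without mixed nuclei had been seen, apart from Gm5820, 9630014M24Rik, Fgf1, Hsd11b1 and Shc4, which the rule for naming picked.

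Female and male nuclei served as a partial split within each pool. Female nuclei were those with at least 2 Xist UMIs and no Y-linked UMI, and male nuclei those with a Y-linked and no Xist UMI. All others were in neither class. Of 1125 control members without mixed nuclei 398 were called female and 416 male, and of 1219 in the library labelled knockout 418 and 460. Each pool held 1 female and 2 males, and how well the calls follow the mice was not tested. By the full rule of size, 126 genes were higher (1.72%) and 11 lower (0.15%) in all female members, and 57 (0.735%) and 15 (0.193%) in all male members. Without mixed nuclei the numbers were 64 (1.03%) and 5 (0.0808%) in female, and 30 (0.465%) and 28 (0.434%) in male nuclei. There, 34 of the 37 higher genes were higher in both and 22 were at least 2-fold higher in both, among them Etv4, Etv5, Etv1, Spred3, Shc3, Fgf1, Alk, Thrb, Arhgap26, Hsd11b1, Vgf, L3mbtl4 and Ptpn5. The 37 were selected on sums that hold these same nuclei. Their shared direction follows in part from that choice and is given only as a description. A few of the 37 rested on very few nuclei. Bnc2 had 61 UMIs in 3 nuclei of the library labelled knockout, up to 33 in 1 nucleus, against 4 in the control, and its ratio was 4.60 in female and -1.39 in male nuclei. Bcas1, a gene of new myelin-forming cells, had 31 and 85 UMIs in 29 and 36 nuclei, with ratios of -0.62 in female and 2.82 in male nuclei.

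Several higher genes of all members fell short of the rule when mixed nuclei were left out. Unc13c had 115 and 519 UMIs in all members, with up to 68 in 1 nucleus, and 22 and 45 without mixed nuclei. Fn1, fibronectin, had 36 and 147 UMIs in all members and 24 and 29 without mixed nuclei. Chrm2, a muscarinic receptor, went from 68 and 220 to 31 and 28. Trabd2b, Nek10, Grb10, Lbh, Abca8a, Gm19410 and Cdh6, the remaining higher genes that the naming rule picked, also missed the rule of size without mixed nuclei, with log2 ratios from 0.23 for Gm19410 to 2.79 for Abca8a. At 2.79, Abca8a missed the minimum of UMIs or CPM and not the 2-fold. Reln, the secreted glycoprotein of Cajal-Retzius cells, had 73 and 191 UMIs in all members and 44 and 46 without mixed nuclei. The summed level of 5 Cajal-Retzius markers (Reln, Lhx5, Ndnf, Cacna2d2 and Lhx1) was 17.0 and 33.7 CPM in all members, with 0 and 1 of them at 0, and 17.1 and 19.4 CPM without mixed nuclei.

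Genes of the oligodendrocyte lineage were among the lower genes of all members. Mobp, a myelin protein, had 597 and 254 UMIs, a log2 ratio of -1.21, St18 1399 and 659 (-1.06), Aspa, the aspartoacylase of oligodendrocytes, 149 and 67 (-1.12), and Lpar1, a lysophosphatidic acid receptor, 125 and 36 (-1.76). Without mixed nuclei Mobp had 63 and 67 UMIs and St18 96 and 99, so the log2 ratios moved to 0.19 and 0.14, and Aspa had 23 and 12. The summed level of the 5 oligodendrocyte markers, a list shortened after the data were seen, moved in the same way. It was 434.8 and 224.5 CPM in all members, a log2 ratio of -0.95. Without mixed nuclei it was 109.5 and 102.9 CPM, a ratio of -0.09. Of these 5 markers 0 were at 0 in each library. Their part in the lower counts was not tested. Lpar1 was not past the rule of size without mixed nuclei, but female nuclei there had 9 and 3 Lpar1 UMIs, a ratio of -1.44 (-4.11 to 0.42). In all members Lpar1 was at least 2-fold lower in both female and male nuclei. Prom1, Cnksr3, Ninj2, Cldn14, Sytl2, 2310002F09Rik and 9630013A20Rik, also picked by the naming rule, were not past the rule of size without mixed nuclei.

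Lef1 (ENSMUSG00000027985), a transcription factor of Wnt signalling, was lower in the members with and without mixed nuclei. It overlaps Lef1os1 on the opposite strand. It had 88 UMIs in 60 control nuclei and 35 in 27 nuclei of the library labelled knockout without mixed nuclei, a log2 ratio of -1.22 (-1.84 to -0.65). Female nuclei had 35 and 13 UMIs and male nuclei 35 and 14, ratios of -1.40 and -1.10. Lef1 was itself a gene of the immature stage, at 16.2 and 6.91 CPM in immature and 1.07 and 1.26 CPM in mature nuclei. Tcf7l2, its relative in the same pathway, had 107 and 53 UMIs, a ratio of -0.91 (-1.42 to -0.43) that was under 2-fold without mixed nuclei.

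Of the 10 lower genes, 7 had the same sign in female and male nuclei. The 10 were likewise selected on sums that hold these same nuclei, so a shared sign follows in part from that choice. Besides Lef1, only Megf11 was at least 2-fold lower in both female and male nuclei. This gene of an EGF-like domain membrane protein had 71 and 28 UMIs, a ratio of -1.23 (-1.93 to -0.59), but 180 and 146 with mixed nuclei kept. Rmst, a noncoding RNA of neurogenesis, had 288 and 121 UMIs, a ratio of -1.15, with -0.64 in female and -1.91 in male nuclei, but 675 and 792 UMIs, a ratio of 0.25, with mixed nuclei kept. Baz1a, a subunit of chromatin remodelling complexes, had 108 and 47 UMIs, a ratio of -1.09, with -0.81 and -0.76. Klhl1 had 63 UMIs in only 6 control nuclei against 4 in 4 nuclei, with 43 and 0 in male and 0 and 2 in female nuclei. Sntb1, a syntrophin, had 92 and 42 UMIs, with 6 and 28 in female and 54 and 6 in male nuclei, so that the female nuclei went the other way. Gm28905 did likewise, with 107 and 44 UMIs in all, 11 and 27 in female and 76 and 7 in male nuclei. The noncoding 4921539H07Rik had 82 UMIs in 35 control nuclei and 25 in 9 nuclei.

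**Figure D3:**
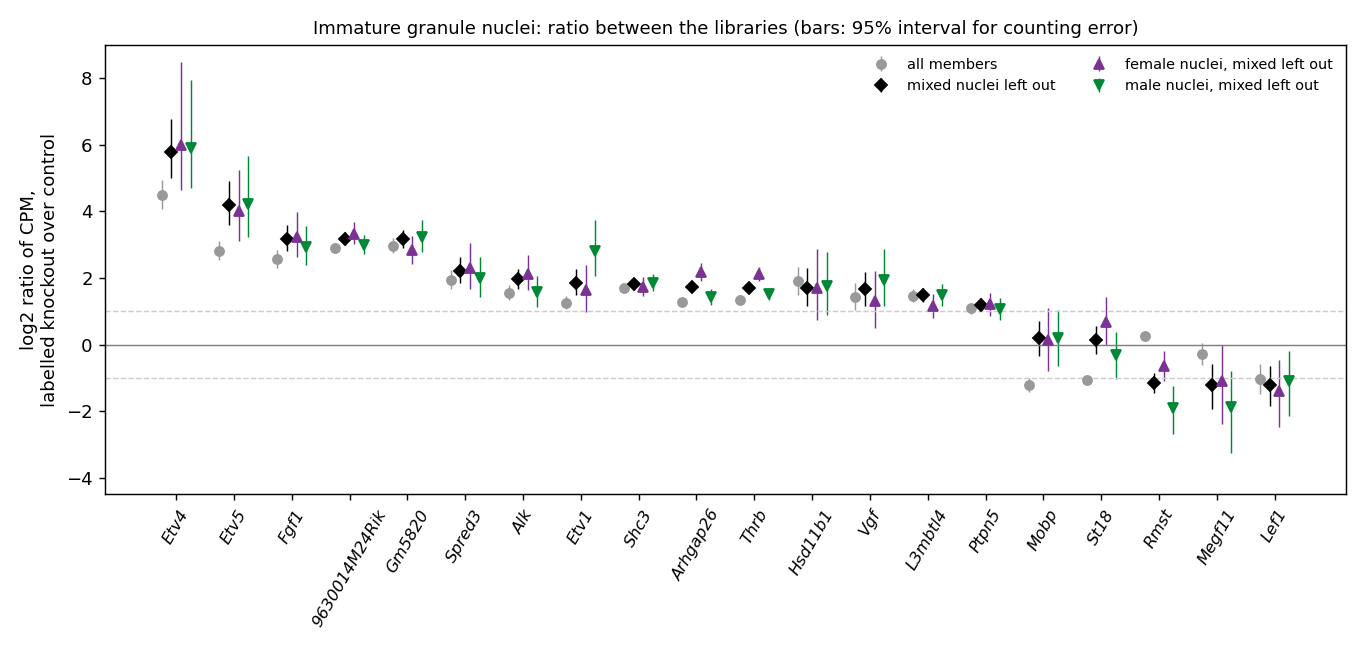
log2 ratio of CPM, library labelled knockout over control, of 20 genes in all members, in members without mixed nuclei, and in the female and male nuclei of the latter, with 95% intervals for counting error; dashed lines mark 2-fold. Etv4 and Etv5 stood highest, at 5.76 and 4.18 without mixed nuclei, while Mobp and St18 moved from -1.21 and -1.06 to 0.19 and 0.14 when mixed nuclei were left out.

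Free RNA was gauged in microglia and interneurons, which lie outside the Emx1 lineage. An Etv4 UMI was found in 1.07% of control members without mixed nuclei (0.55% to 1.86%) and in 38.7% of those in the library labelled knockout (36.0% to 41.5%). Their median depths were 4325 and 3670 UMIs. In microglia that were not called doublets the shares were 2.55% and 11.7%, at 2310.5 and 1833 UMIs, and in interneurons 3.96% and 10.6%, at 17443 and 14562 UMIs. After each nucleus was thinned to 2000 UMIs, which left out 36 and 83 members, the shares were 0.276% and 22.7% in members, 1.04% and 6.58% in microglia and 0.308% and 2.39% in interneurons. Thinning left out 425 and 669 microglia and 7 and 3 interneurons. The share in members of the library labelled knockout thus stood above those of both other classes at equal depth, and the control share at or below them.

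Other targets were also detected in microglia and interneurons, where free RNA and the cells' own RNA cannot be told apart. A Shc3 UMI was found in 11.5% and 39.8% of thinned members, in 4.62% and 10.3% of thinned microglia, and in 15.8% and 16.4% of thinned interneurons. Spred3 was found in 3.21% and 10.5% of thinned members, 2.09% and 4.32% of thinned microglia, and 5.54% and 6.32% of thinned interneurons. For Etv5 the shares were 0.735% and 12.8% in thinned members, 9.99% and 14.8% in thinned microglia and 5.54% and 5.90% in thinned interneurons. The Etv5 share in members of the library labelled knockout was therefore not above that of its microglia, while the control share of members was below that of the control microglia. Etv1 was found in 1.75% and 6.95% of thinned members, 17.4% and 23.7% of thinned microglia, and 1.39% and 3.51% of thinned interneurons, so its share in members was below that of microglia in both libraries. In interneurons that were not called doublets, where 1 of 8809 genes (0.0114%) was higher and 2 (0.0227%) lower by the rule of size, none of the 15 targets was past it. Etv4 had 32 and 98 UMIs there, a log2 ratio of 1.72 (1.15 to 2.36), but its level in the library labelled knockout was under the minimum of 10 CPM. With called doublets kept, where 2 of 8814 genes (0.0227%) were higher and 0 (0.0%) lower, Etv4 reached 10.4 CPM and was past the rule. In microglia, where 62 of 9781 genes (0.634%) were higher and 63 (0.644%) lower, 4 of the 15 were higher (Etv4, Etv5, Spred3 and Shc3), at a list median of 0.29. Etv4 had 31 and 229 UMIs in these microglia, or 5.39 and 53.6 CPM against 2.21 and 125.2 CPM in members. What part of the members' counts was free RNA was not tested.

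Along the range from mature to immature, Etv4 rose somewhat in the library labelled knockout, whereas Shc3 had no steady direction. Granule nuclei without mixed nuclei were placed in 5 bins by their immature over mature UMI sum, with 989 and 374 nuclei at a ratio of 0 and 173 and 199 at a ratio of 3 and above. In the library labelled knockout Etv4 ran from 102.4 CPM (92.3 to 113.2) at ratio 0 to 129.2 CPM (103.5 to 159.4) at 3 and above, and Shc3 from 247.5 to 216.8 CPM. With all granule nuclei kept, Etv4 ran from 89.6 to 135.6 CPM and Shc3 from 192.1 to 220.6 CPM. In the control, Etv4 was between 0.885 and 4.33 CPM by bin. These bins held only 19, 14, 4, 5 and 3 Etv4 UMIs from ratio 0 upwards, too few to read a rise or fall. Control Shc3 was 18.5 CPM at ratio 0, 81.3 CPM at 0.5 to under 1 and 56.2 CPM at 3 and above. With all granule nuclei kept the control Etv4 level was between 4.17 and 7.34 CPM.

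The log2 ratio of Shc3 was accordingly 3.74 (3.53 to 3.97) in the most mature bin and 1.93 (1.43 to 2.50) in the most immature one. With all granule nuclei kept these ratios were 2.35 and 1.5. Without mixed nuclei, Fgf1 and 9630014M24Rik, too, had higher control levels and smaller ratios in the most immature than in the most mature bin. Fgf1 stood at 0.976 CPM at ratio 0 and 10.1 CPM at 3 and above in the control, and at 56.2 and 86.1 CPM in the library labelled knockout, log2 ratios of 5.79 and 3.01. For 9630014M24Rik the control had 2.39 and 51.9 CPM and the library labelled knockout 185.9 and 454.5 CPM, ratios of 6.25 and 3.11. With all granule nuclei kept Fgf1 reversed, with 19.5 and 9.57 CPM in the control and log2 ratios of 1.93 and 3.11. The control level of 9630014M24Rik was then still higher at 3 and above than at ratio 0, at 46.6 against 15.97 CPM, but its ratios were nearly equal, at 3.12 and 3.09. Thrb went the other way, with a ratio of 0.70 at ratio 0 and 2.10 at 3 and above, and 0.19 and 2.11 with all granule nuclei kept. Differences between bins were not tested, and all bins of a library share its preparation.

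**Figure D4:**
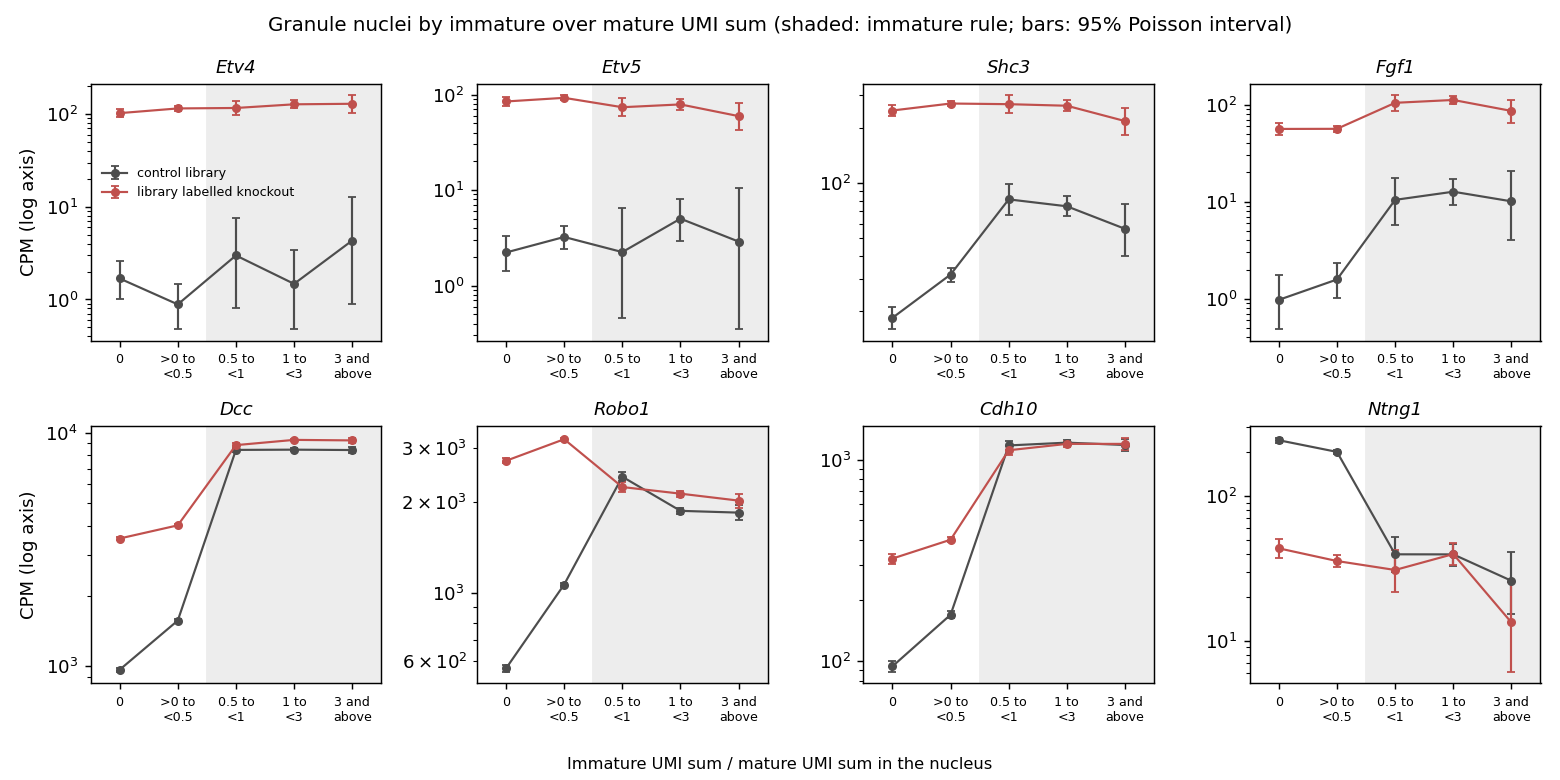
Level in CPM (log axis) of 8 genes in 5 bins of granule nuclei without mixed nuclei, with 95% Poisson intervals. The bins run from a ratio of immature to mature UMI sum of 0, where no UMI of the immature genes was captured, to 3 and above. The shaded bins are members. Etv4 was at 102.4 to 129.2 CPM in every bin of the library labelled knockout, while the lines of Dcc, Robo1 and Cdh10 were apart in the mature bins and close in the members. With all granule nuclei kept the log2 ratios of Cdh10 in the mature bins, 1.78 and 1.24 here, were 0.64 and 0.60. The lines of Ntng1 were apart in the mature bins, and its most immature bin held only 18 and 9 UMIs, a log2 ratio of -0.92 (-2.29 to 0.27).

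Axon guidance genes direct the growth of the mossy fiber. Of 55 guidance genes none was past the rule of size, with 41 of them reaching its minimum in all members and 40 without mixed nuclei, and the median log2 ratios were -0.09 and -0.05. Over all genes the rule called 0.561% higher and 0.197% lower in all members and 0.382% and 0.103% without mixed nuclei, so a count of 0 in a list of this size is near the background and is not a result about the list. In the stricter mature nuclei, where 156 of 8535 genes (1.83%) were higher and 89 (1.04%) lower, 6 of the 55 were higher and 4 lower. Over all mature nuclei, where 111 of 9012 genes (1.23%) were higher and 25 (0.277%) lower, 4 were higher and 2 lower. The 5 Cajal-Retzius markers summed to 7.23 CPM in the control and 31.0 CPM in the other library in the stricter mature nuclei, a log2 ratio of 2.10, with 1 and 2 of them at 0, and their part in these differences was not tested. Guidance and adhesion genes named below for their mature levels were chosen because they were past the rule there. Dcc (ENSMUSG00000060534), the netrin receptor, had 45781 and 46537 UMIs in members without mixed nuclei, 8438 and 9187 CPM, a log2 ratio of 0.12 (0.10 to 0.14). In mature nuclei of the stricter class, which is meant from here on unless all are named, it had 1319 and 3890 CPM, a ratio of 1.56, and over all mature nuclei 1.15. The mature level in the library labelled knockout thus lay between the mature and the immature level of the control.

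Robo1, a receptor of Slit proteins, had 1996 and 2134 CPM in members and 858.2 and 3088 CPM in mature nuclei. Its relative Robo3, sparse in members with 39 and 20 UMIs, had 63.8 and 17.0 CPM in mature nuclei. Ephb1, an ephrin-B receptor, had 399.2 and 347.0 CPM in members and 111.4 and 441.5 CPM in mature nuclei, but over all mature nuclei it had 215.5 and 397.7 CPM, under 2-fold. Epha10 had 35 and 18 UMIs in members, and 38.9 and 8.81 CPM in mature nuclei. With mixed nuclei kept, the member bins, from least to most immature, had Robo3 log2 ratios of 0.46, -0.01 and -1.97. Those of Epha10 were 0.55, -0.15 and 0.85. Sema3e, a semaphorin that signals through plexin D1, had 1368 and 1981 UMIs, a ratio of 0.63 (0.53 to 0.73) in members and 1.34 in mature nuclei, but 0.87 over all mature nuclei. Sema7a, a membrane-anchored semaphorin, had 204 and 125 UMIs (-0.61) and Sema3d 16 and 35 (1.20) in members, and Unc5d, a netrin receptor, 870 and 523 (-0.63). With mixed nuclei kept Unc5d had 1317 and 1641 UMIs, a ratio of 0.34. Plxnb3 and Epha8, which the naming rule picked from all members, had 61 and 34 and 41 and 24 UMIs there.

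Genes of mossy fiber adhesion and synapse assembly held 0 of 34 past the rule in members without mixed nuclei, again near the all-gene shares of 0.382% and 0.103%, and 2 higher in mature nuclei, against 1.83% of all genes. Over all mature nuclei 0 of the 34 were past it. The medians were -0.02 and 0.07. Cdh10, a classical cadherin, had 6506 and 5960 UMIs in members, a ratio of -0.03 (-0.08 to 0.02), and 138.3 and 381.1 CPM in mature nuclei, a ratio of 1.46 that was 0.58 over all mature nuclei. Flrt2, a ligand of latrophilins and Unc5 receptors, had 121 and 173 UMIs in members (0.61), and log2 ratios of 1.17 in mature nuclei and 0.47 over all of them. Tenm2, a teneurin, had 23268 and 26944 UMIs in members, a ratio of 0.31 (0.29 to 0.34), and Lrrtm3, a postsynaptic adhesion protein, 2023 and 2411 (0.35). St8sia2, which makes the polysialic acid of young neurons, had 701 and 653 UMIs in members and 3.03 and 3.91 CPM in mature nuclei.

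The 3 genes of the mature list that were past the rule as lower in mature nuclei were Ntng1, Rasgrp1 and Trpc6. Over all mature nuclei they were past it too, at log2 ratios of -1.11, -1.12 and -1.70. Ntng1, a netrin-G cell adhesion protein, had 205 and 173 UMIs in members, 37.8 and 34.1 CPM, and 218.8 and 37.5 CPM in mature nuclei, a ratio of -2.54 there. With mixed nuclei kept, the Ntng1 log2 ratio in members was 1.19 at 0.5 to under 1, 0.14 at 1 to under 3 and -1.06 at 3 and above. Rasgrp1, an activator of Ras, had 91 and 85 UMIs in members and 28.2 and 5.50 CPM in mature nuclei. In the library labelled knockout its level was higher in members, at 10.4 to 18.3 CPM by bin, than in the mature bins, at 5.67 and 5.44 CPM. Trpc6 had 48 and 25 UMIs in members (-0.83, -1.60 to -0.12). Over the 22 mature genes counted in members without mixed nuclei none was past the rule, near the all-gene share of 0.103% lower, with a median of -0.13, and 3 of 23 were lower in mature nuclei, where 1.04% of all genes were, with a median of -0.17. Whether any of these ratios differs between the stages was not tested, since both stages come from the same 2 libraries.

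Of the 24 young-neuron genes, none was past the rule, near the all-gene shares of 0.382% and 0.103%, and the median over the 23 counted was 0.11 without mixed nuclei. Tubb2b, a tubulin of growing neurites, had 197 and 283 UMIs (0.62, 0.35 to 0.89), Gap43, a growth cone protein, 237 and 282 (0.35), and Epha7 3878 and 2689 (-0.43). Dpysl3, a growth cone protein of the CRMP family, had 1354 and 1369 UMIs in members (0.11) and 25.9 and 96.0 CPM in mature nuclei (1.89). Calb1 had a log2 ratio of -0.80 (-1.47 to -0.17) in members. Of 28 transcription factors of the granule and wider telencephalic lineage, Lef1 alone was past the rule without mixed nuclei, and the median was -0.07. Tshz2, past the rule in all members with 837 and 1677 UMIs, had 302 and 224 without mixed nuclei.

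Of channels and transmitter receptors 0 of 31 were past the rule, near the all-gene shares of 0.561% and 0.197% with and 0.382% and 0.103% without mixed nuclei, with medians of -0.07 with and -0.05 without mixed nuclei. The chloride carriers that set the sign of GABA responses, Slc12a2 (339 and 307 UMIs) and Slc12a5 (162 and 157), had ratios of -0.04 and 0.05. Grin2a, an NMDA receptor subunit, had 2373 and 1716 UMIs, a ratio of -0.37 (-0.46 to -0.28), with -0.24 in female and -0.33 in male nuclei. Scn1a, a sodium channel, had 768 and 874 UMIs (0.29). Of 31 genes of the ERK cascade itself none was past the rule, again near the all-gene shares, and the median was 0.07. Atxn1, a partner of Capicua in its repressor complex, had 1370 and 1233 UMIs (-0.05), Rasgrf2, an exchange factor for Ras, 94 and 91 (0.05), and Hras 29 and 40 (0.56). The activity and handling list, genes that respond within minutes to stimulation or tissue handling, was sparse, with 9 of 16 counted and a median of -0.28. Egr1 had 17 and 6 UMIs, Arc 16 and 10, Egr3 27 and 15 and Dusp1 8 and 15.

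Members also varied among themselves within each library. After thinning to 2000 UMIs, 1089 control members and 1136 of the library labelled knockout remained without mixed nuclei. The variance over the mean of UMIs per nucleus (the Fano factor, 1 for counting noise alone) had a median of 1.07 over 5821 genes in each library. By the smaller value of the 2 libraries Dpp10, an auxiliary subunit of potassium channels, led with 27.3 and 31.9, with a UMI in only 8.63% and 6.25% of nuclei. Kcnip4, a subunit of the same channels, followed with 13.8 and 11.99 and a UMI in 30.0% and 24.6%. Tenm2 had 5.51 and 5.70 with a UMI in 89.3% and 92.0% of nuclei. Kcnip4 was also a gene with opposite ratios in female (0.90) and male (-0.91) nuclei between the libraries.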

How the data were processed

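Nuclei of pooled P19 mouse hippocampus were profiled with a 10x 3′ kit. The authors deposited raw UMI counts per gene and nucleus, made with Cell Ranger 8.0.1 on mm39, per the submitters' processing notes; the annotation release and count settings are not given in the sources used here. Nuclei with at least 500 genes and at most 5% mitochondrial UMIs were kept, and the membership rule was applied to the counts.

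UMIs were summed over members of each library and expressed as CPM. Intervals at the 95% level are exact (Clopper-Pearson for shares, conditional binomial for ratios, Poisson for levels) and cover counting error only; with 1 library per group there was no test. Doublets were called with Scrublet in scanpy 1.11.5. Python 3.11.15, numpy 2.4.6, scipy 1.17.1, pandas 2.3.3 and matplotlib 3.10.9 were used, and the scripts were tested on simulated data.

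Up to 15 other genes per direction past the rule of size, the Capicua targets, and up to 4 genes per list were open to naming between the libraries, and up to 10 per direction and 6 per list between stages. Other named genes were chosen after their values were seen. The members and lists were chosen with earlier results of these data known. Leaving out mixed nuclei, the stricter mature class and the split by sex without mixed nuclei were chosen after seeing the data. Xist, Tsix, Y-linked and mitochondrial genes were left out of counts of genes. Gene overlaps came from GENCODE for GRCm38 and upstream sequence from RefSeq for GRCm38.p6, used without coordinates of the counts. Alternatives varied the rule, doublets, thinning, sex, scaling, the added UMI and the minimum. The oligodendrocyte list was shortened to 5 genes after seeing the data, and its result in full is not reported here.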

Additional observations from a re-analysis of the deposited data

Results flagged for a closer look

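In all members the noncoding transcript 9630013A20Rik had a log2 ratio of 0.46 in nuclei called female and of -1.13 in nuclei called male. Each library held 1 female and 2 male mice. Without mixed nuclei the signs were the same, at -0.67 in female nuclei (56 and 35 UMIs) and -0.66 in male nuclei (51 and 28 UMIs). The opposite signs in all members are a description of these pools, and the difference between the sexes was not tested.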

How the results depend on the processing

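No paired analysis was possible because each group is 1 library, and no replicate could be left out. The ratio of shares of immature nuclei lay between 1.08 and 1.21 under all alternatives run. The count of higher genes, 54, became 82 with at least 4 immature genes, 126 in female nuclei, 24 after thinning to 2000 UMIs, 30 in male nuclei without mixed nuclei and 219 with a minimum of 20 UMIs. The count of lower genes, 19, became 4 without called doublets, 10 without Sema3c in the rule, 11 in female nuclei, 5 after thinning, 10 without mixed nuclei, 5 in female nuclei without them and 86 with a minimum of 20 UMIs. The median of the Capicua target list, 0.86, was 1.93 after thinning. Of 468 values of 36 named genes under 13 alternatives, 442 kept their direction, 355 of them at 2-fold or more, and 26 reversed. The 36 were chosen as past the rule of size, and the alternatives reuse the same nuclei in whole or in part. A changed minimum of UMIs cannot alter a direction. The kept directions thus follow in part from that choice and are given only as a description. In female nuclei 9630013A20Rik was at 0.46 and 2310002F09Rik at 0.041, and in male nuclei Cldn14 at 0.39 and Cnksr3 at 0.73. After thinning Chrm2 was at -0.61, Ninj2 at 0.40 and Tshz2 at -0.026. Without mixed nuclei Chrm2 was at -0.045, Ninj2 at 1.97, Mobp at 0.19, St18 at 0.14, Sytl2 at 0.16 and Tshz2 at -0.33. In female nuclei without them Cldn14 and Ninj2 were at 1.58, 2310002F09Rik at 3.17, Klhl1 at 2.32, Mobp at 0.13, St18 at 0.67 and Sytl2 at 0.71. The first 4 of these rest on 0 control UMIs against 1, 1, 4 and 2 and depend on the added 0.5 UMI, as do Cldn14 and Ninj2, with 0 against 1, in male nuclei. In male nuclei without them Trabd2b was at -1.03, Chrm2 at -2.04, Cldn14 and Ninj2 at 1.78, Mobp at 0.19 and Tshz2 at -3.25. The cause was not tested. Depth limits genes under 50 UMIs, such as Spry4, Dusp6 and Robo3 in members, to wide intervals.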
